A study of Mus musculus with 80 samples.

Results

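Cell suspensions made from mouse brain in the presence of transcription and translation inhibitors were compared with brain tissue that was homogenized at once, in the Input RNA of both. Input is an aliquot of cleared lysate that did not go through the TRAP pull-down, and it holds RNA of all cell types. The comparison took the 4 libraries labelled as Input of an unsorted cell suspension with inhibitors (mice 156, 157, 1361 and 1362) and the 4 labelled as Input of unsorted tissue homogenate from the same experiment (mice 946, 947, 948 and 949), 8 of the 80 libraries of the series, and all 15753 genes that passed the filter on low counts. All mice carried Cx3cr1(Jung)-cre/Ert2+;NuTRAP+ and had received daily tamoxifen at 100 mg/kg when about 3 months old. The Cx3cr1-driven Cre limits the NuTRAP tag to microglia and related cells, but the tag plays no part in Input. The suspensions came from enzymatic and mechanical dissociation followed by debris removal, with actinomycin D, triptolide and anisomycin present during dissociation. The same 4 mice also gave suspensions without inhibitors, whose Input values (4 libraries) are set beside the others. The comparison asks how far the cell make-up of a suspension departs from that of tissue when new transcription is blocked. Among the libraries compared, no mouse gave both tissue and a suspension, so a difference between mice and a difference between preparations cannot be told apart. Mice 946 to 949 also gave tissue and unsorted suspension libraries of the cell sorting experiment, which were not used here. The study also reports a higher RNA yield and more 3' bias in gene body coverage for tissue Input than for either suspension Input. The part of these differences in the fold changes was not tested.

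Dissociation turns brain tissue into single cell bodies. Neurons lose most of their axons and dendrites in this step, and debris removal discards fragments and damaged cells, while compact cells such as microglia and endothelial cells survive well. Dissociation also switches on immediate-early genes within minutes in living cells, and actinomycin D and triptolide block that new transcription while anisomycin blocks translation. The drugs are added so that the RNA of a suspension stays closer to what the cells held before dissociation.

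The suspension libraries with inhibitors held 10510018 to 11262747 expected counts each and the tissue libraries 8617626 to 10411984. Levels are given in CPM after TMM scaling, that is, as a gene's share of the counts of its library. In bulk RNA, fewer cells of a type and less RNA per cell cannot be told apart. The correlation of log2(CPM + 1) across genes, which are not independent replicates, ran from 0.977 to 0.988 among the 4 inhibitor suspensions and from 0.989 to 0.992 among the 4 tissue libraries, and from 0.743 to 0.813 between the groups. A gene was called when edgeR's quasi-likelihood test gave a false discovery rate (FDR) below 0.1 and the groups differed more than 2-fold. Of the 15753 genes, 7187 were called (45.6%), 4012 of them higher in the suspension (25.5%) and 3175 lower (20.2%), with a median log2 fold change over all genes of 0.03. The 4 libraries of each group did not overlap for 5723 genes with the suspensions higher (36.3%) and 5540 with them lower (35.2%). The change was above 16-fold for 499 genes called higher and 312 called lower. Per-library values are given in the order of mice 946, 947, 948 and 949 for tissue and 156, 157, 1361 and 1362 for the suspensions, and fold changes are log2 values ± SE (n = 4 libraries per group).

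Microglial RNA made up a far larger share of the suspension. All 20 tested microglial markers rose, with a median log2 fold change of 4.50, and their summed level was 672 to 705 CPM in tissue and 14142 to 19889.5 CPM in the suspensions. Cx3cr1, the fractalkine receptor whose locus drives the Cre in these mice, was at 21.8, 17.2, 21.3 and 19.8 CPM in tissue and at 613, 579, 603 and 959 CPM in the suspensions, a change of 5.10 ± 0.23 (adjusted p = 6.2e-13, edgeR). P2ry12 (gene 70839, chr3:59216271-59262831 on mm10), the purinergic receptor of surveying microglia, was at 9.75, 7.71, 7.68 and 7.52 CPM in tissue and 630.1, 567, 538 and 722 CPM in the suspensions (6.23 ± 0.25). The groups were far apart for both genes, and in both the suspension of mouse 1362 was the highest. Gpr34, a lysophosphatidylserine receptor, rose by 6.19 ± 0.23 and the related receptor P2ry13 by 5.30 ± 0.25. The smallest rise on the list was that of Sall1, a transcription factor of microglial identity (3.16 ± 0.19; named after its value was seen). The 10 markers of border macrophages, which line the meninges and vessels, also rose (median 3.68). Mrc1, the mannose receptor, was at 5.83, 3.73, 2.74 and 3.14 CPM in tissue and 90.3, 104, 68.4 and 143 CPM in the suspensions (4.70 ± 0.37), Lyve1, a hyaluronan receptor, rose by 3.79 ± 0.47, and Cd163, the haemoglobin scavenger receptor, by 3.21 ± 0.34. Of the 282 microglial markers compiled by the study, 265 rose and 0 fell (median 3.99).

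**Figure D1:**
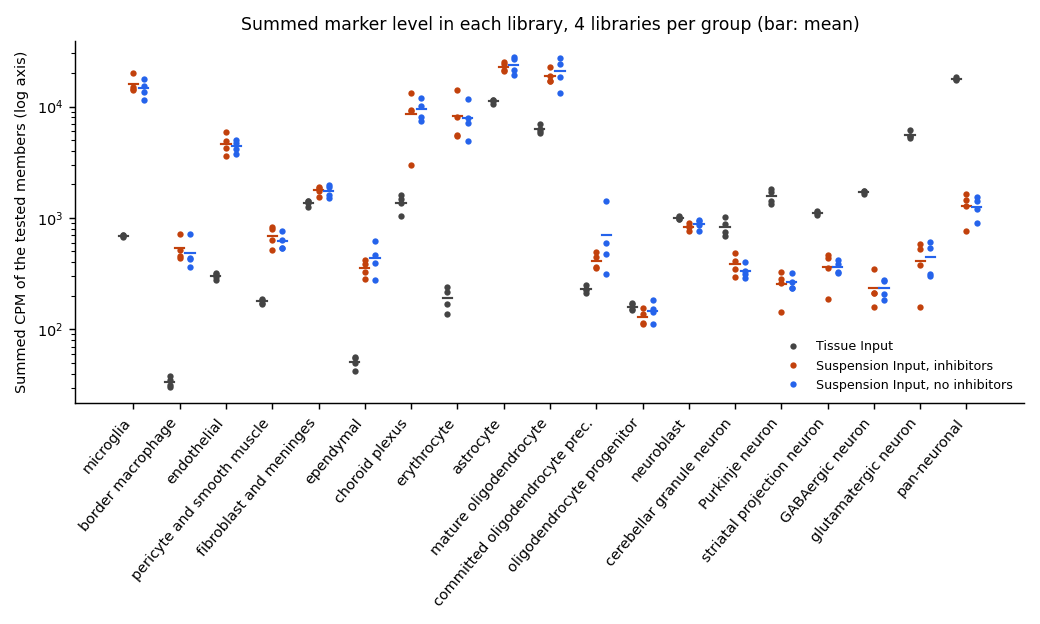
Summed CPM of the tested members of each marker list (log axis) in each library of tissue Input, suspension Input with inhibitors and suspension Input without inhibitors, with the group mean as a bar. Microglial sums lay at 672 to 705 CPM in tissue and 14142 to 19889.5 CPM with inhibitors, pan-neuronal sums at 17278 to 18242 and 760.5 to 1639.5 CPM, and the suspensions of both kinds overlapped in every list shown.

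Markers of the vessel wall rose as well. All 20 endothelial markers rose (median 4.34), and their sum was 279 to 322 CPM in tissue and 3614 to 5924 CPM in the suspensions. Cldn5, a tight junction protein of the blood-brain barrier, was at 25.02, 23.97, 24.001 and 23.01 CPM in tissue and 369, 346, 474 and 534 CPM in the suspensions (4.16 ± 0.16). Flt1, a receptor for vascular endothelial growth factor, rose by 5.08 ± 0.18, Pecam1, an adhesion molecule of endothelial junctions, by 4.57 ± 0.21, and the angiopoietin receptor Tek by 5.51 ± 0.25. In the study's endothelial list, 217 of 235 genes rose and none was called lower (median 3.08). Among mural cells, which wrap the endothelium, all 13 tested pericyte and smooth muscle markers were called higher, with a median of 2.32. Pdgfrb, the pericyte growth factor receptor, was at 13.1, 11.6, 13.5 and 12.8 CPM in tissue and 41.9, 65.04, 86.5 and 61.2 CPM in the suspensions (2.32 ± 0.20), and Rgs5, a pericyte regulator of G protein signalling, rose by 3.51 ± 0.26. Rgs5 was at 46.7, 60.1, 129 and 110.1 CPM in the suspensions, with mice 156 and 157 below the other pair. Of the 10 fibroblast and meningeal markers 7 rose, among them the matrix inhibitor Mgp (3.08 ± 0.15) and the collagen chain Col1a1 (2.31 ± 0.28). The 3 that were not called, picked out after their values were seen, were the matrix proteoglycan Dcn (0.37 ± 0.14), the prostaglandin synthase Ptgds (-0.44 ± 0.10) and the transporter Slc6a13 (-0.75 ± 0.22).

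Ventricular lining cells followed the same direction. The 9 tested ependymal markers rose (median 2.66), such as Foxj1, the master regulator of motile cilia, which was at 19.5, 20.1, 17.9 and 16.4 CPM in tissue and 122, 123, 95.9 and 127 CPM in the suspensions (2.66 ± 0.22). The 10 choroid plexus markers rose too (median 3.34), and the suspension of mouse 1362 stood below the other suspensions in each of them. Ttr, transthyretin, the main secreted carrier protein of this epithelium, was at 1486, 1349, 1242 and 949.6 CPM in tissue and 11035, 7738, 7667 and 2446 CPM in the suspensions (2.52 ± 0.31). Kl, klotho, was at 28.1, 29.6, 25.7 and 22.2 CPM in tissue and 646, 466, 495 and 149 CPM in the suspensions (4.05 ± 0.31). The summed choroid plexus level was 13101, 9271, 9173 and 2968 CPM in the suspensions, against 1039 to 1608 CPM in tissue, so even the lowest suspension lay above all tissue libraries. The suspension of mouse 1362 was also the highest of the 4 in the summed microglial (19889.5 CPM) and endothelial (5924 CPM) levels and the lowest in the pan-neuronal one (760.5 CPM). The part of this library's make-up in the results was not tested beyond the fits without it, in which 3921 genes were called higher and 3091 lower.

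Blood cell RNA, scarce in tissue, was plain in the suspensions. The 3 tested erythrocyte genes rose, with sums of 169, 242, 138 and 218 CPM in tissue and 14009, 7989, 5472 and 5530.1 CPM in the suspensions, a ratio of the means of 43.02 that was the highest of all lists. Alas2 (gene 11656, chrX:150547417-150570622), the erythroid enzyme that begins haem synthesis, was at 6.03, 6.02, 5.79 and 7.63 CPM in tissue and 991, 480.5, 297 and 286 CPM in the suspensions (6.33 ± 0.51). The suspension of mouse 156 was well above the others. The alpha-globin genes Hba-a1 (5.33 ± 0.33) and Hba-a2 (5.55 ± 0.34) moved alike, but they are near-identical copies and the split of reads between them is uncertain. All 6 neutrophil and all 9 monocyte and lymphocyte markers were called higher at low levels, with sums of 119, 39.8, 16.7 and 26.7 CPM and 31.99, 25.7, 27.6 and 30.9 CPM in the suspensions against 0.737 to 3.13 CPM and 0.964 to 2.000 CPM in tissue. With so few tissue counts, these genes were tested because other groups held more, so a call of higher was close to fixed in advance. Over the alternatives 0 to 6 neutrophil and 0 to 9 monocyte and lymphocyte markers were called higher. S100a8, a calcium-binding protein of neutrophils, was at 0.1005, 1.204, 0.526 and 0.561 CPM in tissue and 20.1, 6.32, 3.16 and 4.99 CPM in the suspensions (3.88 ± 0.97), again highest in mouse 156. 2 of the neutrophil and 2 of the other leukocyte markers had no count in any tissue library. With those at a bound set by 3 counts in each tissue library, the medians were 4.08 and 3.36, in place of fitted medians of 6.02 and 4.51.

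**Figure D2:**
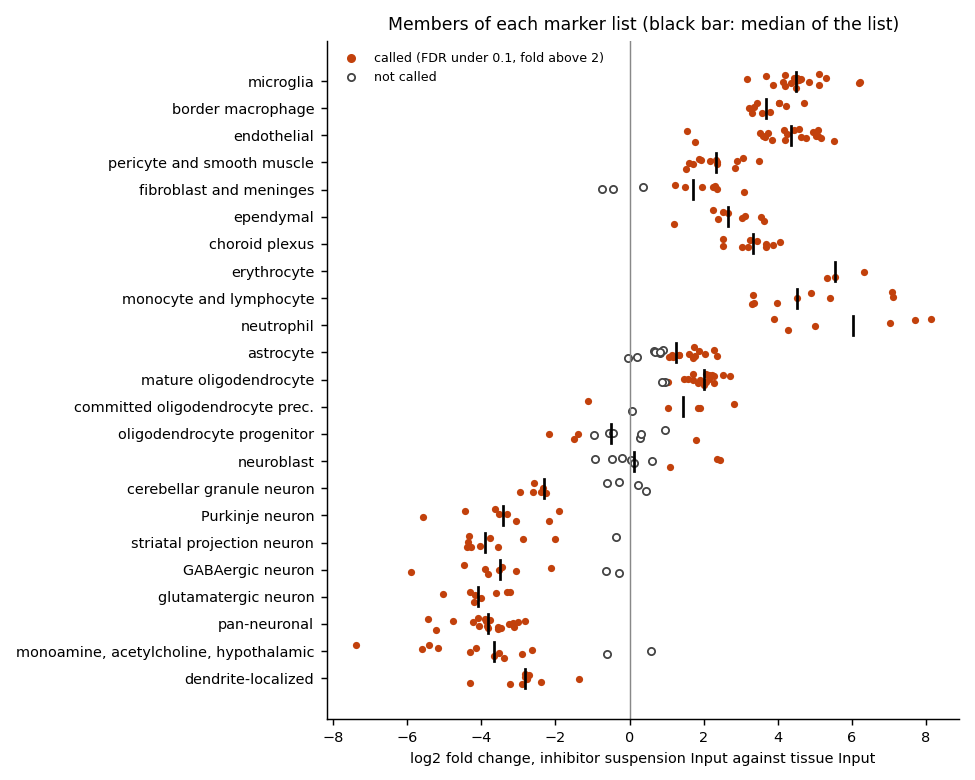
log2 fold change of each tested marker gene in suspension Input with inhibitors against tissue Input, by list, with called genes filled and the list median as a black bar. Microglial, endothelial, choroid plexus and blood markers lay to the right, astrocyte and mature oligodendrocyte markers spread between -0.04 and 2.70, and neuronal markers lay to the left with a few near 0.

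Astrocyte markers were split between called and uncalled genes. Of 20 markers 13 were called higher and none lower, with a median of 1.25 and a range from -0.04 to 2.37. F3, tissue factor, was at 54.6, 72.9, 54.7 and 50.6 CPM in tissue and 296, 327, 299.6 and 279 CPM in the suspensions (2.37 ± 0.16). Gja1, the gap junction protein connexin 43, was at 209, 210.2, 195 and 205 CPM in tissue and 966, 1121, 949 and 967 CPM in the suspensions (2.29 ± 0.21). Both pairs of groups were separate. Aqp4, the water channel of astrocyte endfeet, rose by 1.86 ± 0.26. Gfap, the astrocytic intermediate filament, was at 226, 238, 233 and 206 CPM in tissue and 160.2, 190.1, 204 and 321 CPM in the suspensions, and these groups overlapped (-0.04 ± 0.33, not called). Aldh1l1, a folate enzyme of astrocytes, was at 111, 114, 115 and 99.02 CPM in tissue and 162, 194, 194 and 143 CPM in the suspensions, separate groups whose change of 0.66 ± 0.25 stayed under the fold limit. The other 5 not called, named after their values were seen, were Glul (0.91 ± 0.17), Acsbg1 (0.83 ± 0.26), Slc1a2 (0.81 ± 0.23), S100b (0.69 ± 0.20) and Aldoc (0.21 ± 0.23). Slc1a2 and Slc1a3 both encode glutamate transporters, and Slc1a3 rose by 2.03 ± 0.24. In the study's astrocytic list 88 of 138 genes rose and 3 fell. Those that fell were Dclk1 (-2.13 ± 0.13), Trim9 (-1.25 ± 0.16) and the nuclear receptor Rorb (-1.24 ± 0.52), picked out after their values were seen. Dclk1 and Rorb are known to be expressed in neurons too. Rorb was at 169, 1017, 542 and 538 CPM in tissue and 86.96, 588, 117 and 168 CPM in the suspensions, so both groups spread widely and overlapped. It lost its call without the tissue library of mouse 947 (-0.80) and without the suspension of mouse 156 (-0.97) or 1361 (-1.02; that fit missed the FDR limit).

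The oligodendrocyte lineage split by stage. 17 of 19 mature oligodendrocyte markers rose and none fell (median 2.02), and their sum was 5774 to 7029.7 CPM in tissue and 16796 to 22777 CPM in the suspensions. Mag, myelin-associated glycoprotein, was at 269, 291, 286 and 262 CPM in tissue and 1174, 911, 989 and 1100.0 CPM in the suspensions (1.91 ± 0.13). Ugt8a, which makes the myelin lipid galactocerebroside, rose by 2.70 ± 0.14, and Aspa, aspartoacylase, by 2.52 ± 0.15. Mbp, myelin basic protein, whose mRNA is known to travel out along oligodendrocyte processes, was at 2408, 2707, 2253 and 2119 CPM in tissue and 5599, 4056, 5661 and 3002 CPM in the suspensions. The Mbp groups did not overlap, but at 0.95 ± 0.34 the change was under the fold limit, and it passed that limit without the suspension of mouse 157 (1.00) or of mouse 1362 (1.11), without the tissue library of mouse 947 (1.02), without scaling factors (1.04) and under the stricter count filter (1.00). The other marker not called was Plekhb1 (0.88 ± 0.23), named after its value was seen. The 6 markers of committed precursors, the stage that is about to myelinate, included 4 called higher, such as Enpp6 (2.82 ± 0.29), and 1 called lower, Tcf7l2 (-1.12 ± 0.12; named after its value was seen), a transcription factor that thalamic neurons express too. Gpr17, the receptor that marks this stage, was at 28.1, 34.3, 33.1 and 34.6 CPM in tissue and 28.1, 27.2, 39.3 and 41.2 CPM in the suspensions, and the groups overlapped (0.06 ± 0.26).

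Oligodendrocyte progenitor markers went in both directions. Of 10 markers 1 was called higher and 3 lower, with a median of -0.51. That share, 40% called, was near the 45.6% over all genes. Pdgfra, the growth factor receptor that defines these cells, was at 33.2, 36.4, 36.5 and 34.02 CPM in tissue and 22.5, 25.6, 26.1 and 21.03 CPM in the suspensions. Every suspension was below every tissue library, by less than the fold limit (-0.56 ± 0.19). Cspg4, the NG2 proteoglycan shared with pericytes, was at 16.5, 16.5, 16.3 and 24.5 CPM in tissue and 15.6, 19.2, 33.9 and 21.3 CPM in the suspensions and overlapped (0.29 ± 0.27). C1ql1, a secreted synaptic ligand also made by some neurons, fell (-2.17 ± 0.28), and Xylt1, a proteoglycan enzyme, rose (1.80 ± 0.41). The other 2 that fell, Lhfpl3 (-1.50 ± 0.21) and Susd5 (-1.38 ± 0.25), were named after their values were seen. In the study's oligodendrocytic list 114 of 194 genes rose and 10 fell (median 1.34). Among the 10 were Elavl3 (-1.55 ± 0.15), which encodes a neuronal RNA-binding protein, and Kcna1 (-1.30 ± 0.15), which encodes an axonal potassium channel, both picked out after their values were seen.

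**Figure D3:**
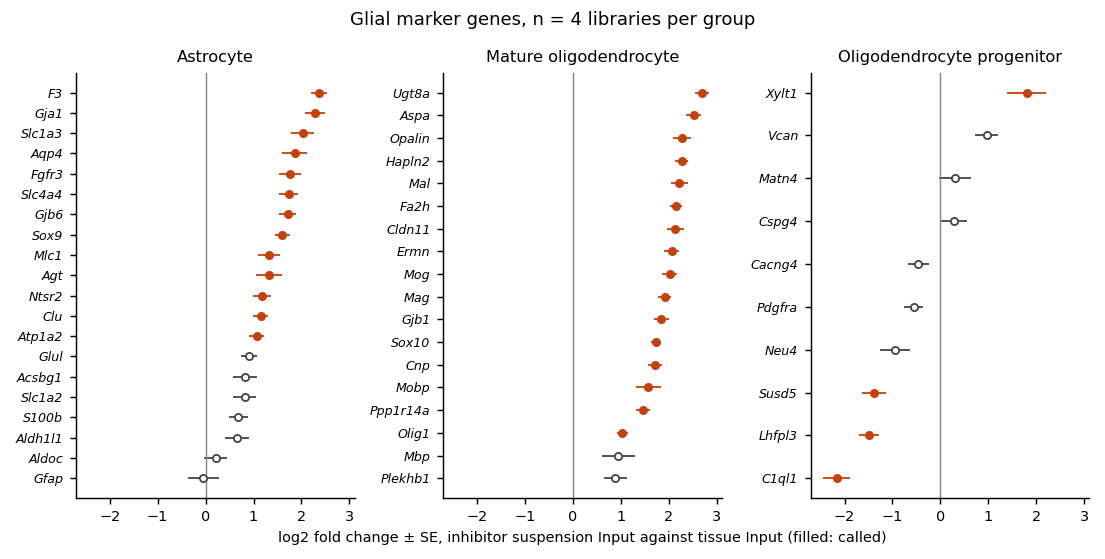
log2 fold change ± SE of astrocyte, mature oligodendrocyte (18 of the 19 tested) and oligodendrocyte progenitor markers in suspension Input with inhibitors against tissue Input (n = 4 libraries per group, filled where called). Astrocyte genes ran from Gfap at -0.04 to F3 at 2.37, mature oligodendrocyte genes from Plekhb1 at 0.88 to Ugt8a at 2.70, and progenitor genes from C1ql1 at -2.17 to Xylt1 at 1.80.

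Neuronal RNA made up a far smaller share of the suspension. All 19 tested pan-neuronal markers fell, with a median log2 fold change of -3.83, and their summed level in the suspensions was 7.27% of that in tissue. Snap25, a synaptic vesicle fusion protein, was at 3121, 3159, 3039 and 2999 CPM in tissue and 229, 279, 254 and 90.9 CPM in the suspensions (-3.85 ± 0.27). Rbfox3, the nuclear marker NeuN, was at 571, 522, 581 and 559 CPM in tissue and 43.1, 63.9, 68.5 and 15.9 CPM in the suspensions (-3.54 ± 0.31). No tissue library overlapped with a suspension, and mouse 1362 was lowest for both. Syt1, the calcium sensor of vesicle release, changed by -3.89 ± 0.28, Nefm, a neurofilament subunit of axons, by -5.21 ± 0.26, and the noncoding RNA Snhg11 by -5.43 ± 0.40. The smallest fall was that of Dlg4, the postsynaptic scaffold PSD-95 (-2.82 ± 0.21; named after its value was seen). The 9 tested transcripts known to be carried into dendrites also fell, with a median of -2.81, among them Camk2a, the synaptic kinase (-3.22 ± 0.33), Shank1, a postsynaptic scaffold (-2.81 ± 0.34), Arc (-2.39 ± 0.23) and Nrgn, neurogranin (-4.29 ± 0.29). In the study's neuronal list 88 of 97 genes fell and 2 rose. The 2 that rose were Erbb4, the neuregulin receptor, at 1.005, 0.723, 0.632 and 1.46 CPM in tissue and 5.83, 3.76, 6.32 and 5.695 CPM in the suspensions (2.48 ± 0.54), and Ndnf, a secreted neurotrophic factor, with 1.01 ± 0.30. Ndnf was at the limit of the fold criterion and lost its call without the suspension of mouse 1362 (0.83), the tissue library of mouse 946 (0.87) or that of mouse 948 (0.91), and in 5 other alternatives.

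The fall held across transmitter classes and regions, but not for every marker. All 8 glutamatergic markers fell (median -4.09), and among the vesicular glutamate transporters Slc17a7 changed by -4.16 ± 0.36 and Slc17a6, the form of thalamus and brainstem, by -5.02 ± 0.24. Of 10 GABAergic markers 8 fell (median -3.49). Sst (gene 20604, chr16:23889581-23890844), the neuropeptide somatostatin, was at 199, 188, 181 and 188 CPM in tissue and 3.98, 4.95, 2.14 and 1.58 CPM in the suspensions (-5.90 ± 0.30), while Gad1, which makes GABA, changed by -3.06 ± 0.23 and the peptide Vip by -4.48 ± 0.27. The GABAergic exceptions, picked out after their values were seen, were Npy, neuropeptide Y, at 77.97, 72.1, 65.1 and 64.2 CPM in tissue and 58.5, 97.6, 30.7 and 40.7 CPM in the suspensions (-0.30 ± 0.29), and Dlx1 (-0.64 ± 0.26), a transcription factor that immature interneurons keep. 9 of 10 striatal projection neuron markers fell (median -3.90), such as the dopamine receptors Drd1a (-4.29 ± 0.50) and Drd2 (-4.39 ± 0.51). Ppp1r1b, the phosphatase inhibitor DARPP-32, was the exception, at 371, 342, 378 and 352 CPM in tissue and 366, 334, 296 and 123 CPM in the suspensions (-0.37 ± 0.23; picked out after its value was seen), with mouse 1362 below the rest.

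In the cerebellum, markers of granule neurons, the small and very numerous neurons of its cortex, and of Purkinje neurons, its large output neurons, were compared with the other neuronal lists. The summed level of granule markers in the suspensions was 46.2% of that in tissue, and the same figure was 16.1% for Purkinje neurons, 32.3% for striatal, 13.7% for GABAergic and 7.41% for glutamatergic markers and 7.27% for pan-neuronal ones. No test of these lists against each other was made. Of the 10 granule neuron markers 6 fell (median of the list -2.30), and the granule sum includes the 4 that were not called. The striatal sum was 434, 464, 354 and 188 CPM in the suspensions. In each of them most of it was Ppp1r1b, which was not called, while the median of the striatal list was -3.90. Gabra6, a GABA receptor subunit particular to these cells in the cerebellum, was at 56.97, 37.9, 61.1 and 43.7 CPM in tissue and 6.54, 8.43, 14.6 and 3.24 CPM in the suspensions (-2.61 ± 0.31). Neurod1, a neuronal differentiation factor, changed by -2.40 ± 0.29 and the synaptic organizer Cbln1 by -2.59 ± 0.35. The 4 not called were Etv1 (0.43 ± 0.10), Pax6 (-0.61 ± 0.19), Zic1 (-0.28 ± 0.16) and Zic2 (0.23 ± 0.13), named after their values were seen. All of these encode transcription factors, but so do Neurod1 and Barhl2, which fell, Barhl2 by the most on the list (-2.94 ± 0.34). Pax6 is also known in astrocytes, and Zic1 and Zic2 in meninges. Zic2 was at 77.5, 63.1, 80.2 and 66.5 CPM in tissue and 83.8, 92.3, 88.6 and 72.2 CPM in the suspensions, with overlap. All 8 Purkinje markers fell (median -3.41), with Slc1a6, the Purkinje glutamate transporter, at 71.2, 52.8, 76.9 and 52.9 CPM in tissue and 1.59, 1.01, 1.95 and 0.789 CPM in the suspensions (-5.56 ± 0.31).

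Deep and rare neuron groups were affected as well. 11 of 13 monoaminergic, cholinergic and hypothalamic markers fell. Among them was Th, an enzyme of dopamine synthesis, at 50.7, 56.2, 41.5 and 57.4 CPM in tissue and 3.09, 8.79, 3.53 and 0.789 CPM in the suspensions (-3.67 ± 0.43). Slc6a3, the dopamine transporter, changed by -3.53 ± 0.56. Oxt, oxytocin, was at 31.05, 22.6, 21.2 and 27.7 CPM in tissue and 0.619, 0, 0 and 1.402 CPM in the suspensions, where 2 libraries had no count (-5.60 ± 0.70). Hcrt, the hypothalamic peptide orexin, was at 8.14, 8.43, 12.3 and 10.1 CPM in tissue and held at most 2 counts in a suspension library, so no fold is given. The 2 not called were Ddc (0.57 ± 0.17), an enzyme of monoamine synthesis, and the peptide precursor Pomc (-0.60 ± 0.35; named after its value was seen). Of 9 neuroblast markers, of immature migrating neurons, 3 rose and none was called lower (median 0.11, and -0.18 without the suspension of mouse 1362). That share, 33.3% called, was below the 45.6% called over all genes. Dcx, doublecortin, was at 20.998, 25.8, 24.2 and 30.5 CPM in tissue and 22.3, 18.7, 21.4 and 40.8 CPM in the suspensions, with overlap (0.03 ± 0.29), and Sox11, a transcription factor of immature neurons, also overlapped (-0.22 ± 0.21). The 3 that rose were Cd24a (2.35 ± 0.21), which ependymal cells express too, Igfbpl1 (2.45 ± 0.34) and Sox4 (1.10 ± 0.13).

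Genes that respond within minutes are where blocked transcription enters this comparison. Of 44 immediate-early genes 16 were called higher and 12 lower in the inhibitor suspensions than in tissue, with a median of 0.40. In all 63.6% of the list was called, against 45.6% of all genes, of which 25.5% were higher and 20.2% lower. Between the suspensions of the same mice, 25 of the 44 were called lower with inhibitors and none higher, and the background there was 49 of 15753 genes called (0.311%), all of them lower. At an unadjusted p under 0.05 that comparison had 532 genes, and 58 genes were called lower and 1 higher by DESeq2 and 45 lower and 1 higher by limma. Fos (gene 14281, chr12:85473901-85477270), the classical activity-induced transcription factor, was at 49.8, 33.6, 25.4 and 30.5 CPM in tissue, 11.7, 15.8, 15.2 and 20.2 CPM in suspensions with inhibitors and 848, 1071, 1079 and 1732 CPM in suspensions without. Its change was -6.23 ± 0.31 against the suspensions without inhibitors and -1.15 ± 0.27 against tissue. Without the tissue library of mouse 946, which was the highest, the latter was -0.92 and no longer called. Jun, its dimer partner (named after its values were seen), was at 111, 92.98, 92.003 and 87.8 CPM in tissue and 95.001, 100.2, 105 and 118 CPM with inhibitors, with overlap (0.12 ± 0.13), against 937, 1337, 1236 and 1518 CPM without inhibitors.

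The genes lower than in tissue were led by ones known from neuronal activity. Npas4, a neuronal activity factor, changed by -4.28 ± 0.40, the zinc finger factors Egr4 by -4.43 ± 0.38 and Egr3 by -2.70 ± 0.34, the Fos paralogue Fosb by -2.50 ± 0.34 and the kinase Plk2 by -2.10 ± 0.11. Egr1, an early growth response factor expressed in neurons at rest, was at 304, 218, 197 and 231 CPM in tissue and 25.2, 39.3, 28.5 and 31.6 CPM with inhibitors (-2.93 ± 0.20). Without inhibitors Egr1 was at 735, 822, 799 and 1349 CPM, above all tissue libraries, whereas Arc was at 33.6, 24.8, 27.1 and 35.4 CPM, Egr4 at 3.04, 2.34, 2.13 and 2.099 CPM and Plk2 at 44.1, 42.5, 48.7 and 40.4 CPM, each below all tissue libraries. The other genes called lower were Egr2 (-1.82 ± 0.35), the nuclear receptor Nr4a2 (-1.24 ± 0.26), the phosphatase Dusp5 (-2.66 ± 0.34) and Gadd45b (-1.02 ± 0.24), the last of which lost its call without the suspension of mouse 156 (-0.94) or 1361 (-0.96) or the tissue library of mouse 946 (-0.99).

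Another set stayed above tissue with the drugs present. Zfp36, which destabilizes inflammatory mRNAs, was at 3.82, 5.902, 4.000 and 3.59 CPM in tissue, 59.8, 55.2, 62.7 and 93.8 CPM with inhibitors (3.98 ± 0.23) and 790.2, 1068, 892 and 1305 CPM without. Klf2, a transcription factor of endothelial and immune cells, was at 9.04, 8.31, 9.37 and 8.87 CPM in tissue and 125, 126, 150.1 and 152 CPM with inhibitors (3.96 ± 0.13). Klf4 rose against tissue by 3.82 ± 0.27, Btg2, an antiproliferative gene, by 2.39 ± 0.19, the matricellular protein gene Cyr61 by 2.46 ± 0.18 and Atf3, a stress-induced factor, by 2.42 ± 0.36. Beside these, microglial and endothelial markers had medians of 4.50 and 4.34, and the part of that shift in the levels of this set was not tested. The remaining 10 called higher lay between 1.17 and 2.56 and were Maff, Myc, Dusp6, Sgk1, Socs3, Rhob, Nfkbia, Klf6, Mcl1 and Nr4a3. Of the 49 genes lower with inhibitors than without, 47 had been called higher than tissue in the suspensions without inhibitors. With inhibitors 25 were higher than tissue, 5 were lower and 19 were not called.

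**Figure D4:**
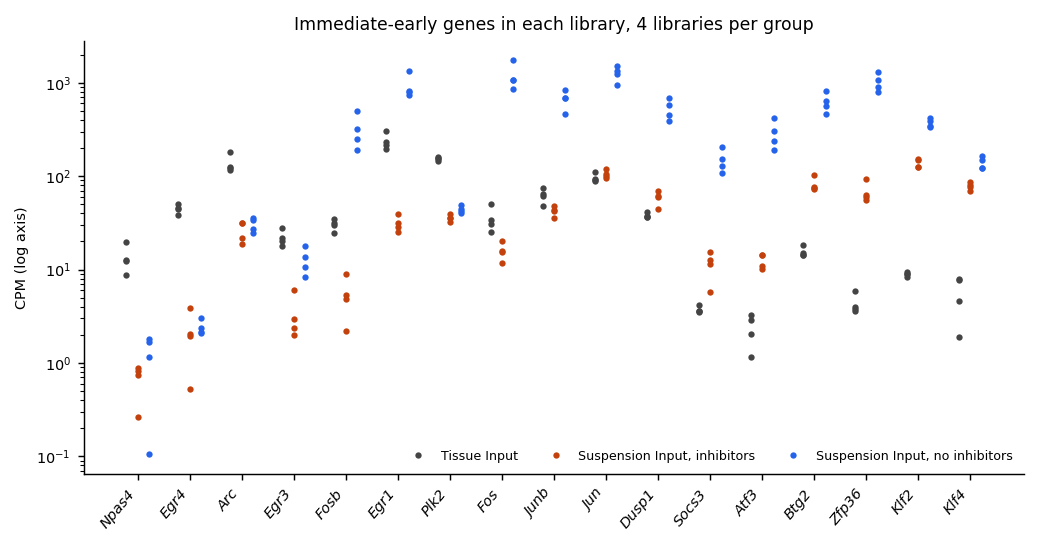
CPM of immediate-early genes in each library (log axis) in tissue Input and suspension Input with and without inhibitors (4 libraries per group). Npas4, Egr4, Arc and Plk2 were below tissue in both suspensions, Fos and Egr1 were above tissue only without inhibitors, and Zfp36, Klf2 and Klf4 were above tissue in both.

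Promoter sequence was looked at for the 49 genes lower with inhibitors, since they moved together. RefSeq windows (GRCm38.p6) of 250 bases before and 50 after the start were found for 34 of them, and were searched on both strands for the cAMP response element, TGACGTCA, and for the CArG box bound by serum response factor. The cAMP response element was in a window of 4 of the 34 genes (11.8%), against 2.03% of the 27025 genes with windows, and the CArG box in 2 (5.88%), against 1.81%. These shares are descriptions of small numbers with no test. The cAMP response element reads the same on both strands, and the motifs do not overlap each other. The matches are printed with the motif in capitals, because these are the genes among those lowered by the drugs whose windows hold an element. The windows of Egr2 held a pair of CArG boxes.
Btg2, chr1:134079307-134079328, minus strand: ccaataaTGACGTCAgtgagcg
Dusp1, chr17:26508601-26508622, minus strand: gggcgggTGACGTCAccgcccg
Ppp1r15a, chr7:45526266-45526287, minus strand: tctccggTGACGTCAgcacagc
Nfkbid, chr7:30422348-30422369, plus strand: agcgccgTGACGTCAgcgcgcg
Zfp36, chr7:28379270-28379293, minus strand: ggccgccCCATAAAAGGagaaagc
Egr2, chr10:67537487-67537510, plus strand: atcttctCCTTTTTTGGaaagtct
Egr2, chr10:67537790-67537813, plus strand: cctcagtCCATATATGGgcagcga
Dusp1, named with Ppp1r15a for its match, a phosphatase that ends kinase signalling, was at 44.2, 60.5, 61.9 and 68.7 CPM with inhibitors and 390.2, 572, 453 and 691 CPM without (-3.16 ± 0.18), Ppp1r15a changed by -1.35 ± 0.15 between the suspensions, Btg2 by -2.92 ± 0.18, Nfkbid by -4.25 ± 0.41, Zfp36 by -3.90 ± 0.21 and Egr2 by -5.12 ± 0.33.

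Besides 25 immediate-early and 9 cytokine genes, 15 of the 49 were on neither list, and those described here were chosen after their values were seen. Tnfaip3, which ends signalling of the factor NF-kappa-B, was at 4.72, 2.89, 4.11 and 2.69 CPM in tissue, 17.3, 21.1, 17.005 and 26.99 CPM with inhibitors and 88.9, 105, 102 and 174 CPM without (-2.51 ± 0.21 between the suspensions). Cd83, an activation antigen of antigen-presenting cells, was at 34.96, 36.01, 37.4 and 30.2 CPM, 38.7, 38.4, 42.9 and 68.4 CPM and 112, 103, 145 and 281 CPM in the same order (-1.76 ± 0.26). For both of these immune genes every inhibitor suspension lay above every tissue library, as it did for 36.3% of all genes. Against tissue Tnfaip3 was called higher (2.50 ± 0.25) and Cd83 was not called (0.44 ± 0.26). Cebpb, a transcription factor of macrophages, differed by -1.47 ± 0.21, and Cited2, a transcriptional co-regulator, by -1.50 ± 0.16.

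Cytokine and chemokine transcripts were scarce in tissue and low with inhibitors. 15 of 16 were called higher than in tissue and 9 were called lower than without inhibitors. Members with few tissue counts were tested because other groups held more, so their call of higher was close to fixed in advance. Over the alternatives 3 to 16 were called higher. Cxcl2, among the 15, had no tissue count and at most 4 counts in an inhibitor suspension. With tissue at the bound of 3 counts its change was -0.40. Between the suspensions the list median was -1.87, and 0.10 under the stricter count filter, which removes members with low tissue counts. Ccl4, a macrophage inflammatory chemokine, was at 0, 0.241, 0 and 0 CPM in tissue, 1.68, 2.66, 1.12 and 3.42 CPM with inhibitors and 50.1, 38.5, 78.5 and 132 CPM without, and Ccl3 at 0.402, 0.361, 0.211 and 0.449 CPM, 3.71, 3.11, 2.14 and 6.57 CPM and 49.2, 45.99, 75.9 and 133 CPM. Tissue libraries held no count of Tnf, tumour necrosis factor, which was at 1.41, 1.01, 0.836 and 2.28 CPM with inhibitors and 12.6, 13.7, 20.3 and 24.9 CPM without. For the interleukins Il1a was at 0.502, 0.602, 0.316 and 0.337 CPM in tissue and 10.4, 9.53, 12.7 and 14.8 CPM with inhibitors (4.72 ± 0.50) and Il1b at 0, 0.723, 0 and 0 CPM and 3.005, 3.21, 2.88 and 4.03 CPM (4.21 ± 0.67). Tgfb1, transforming growth factor beta 1, was at 6.53, 5.66, 4.84 and 7.75 CPM in tissue and 133, 139, 146 and 212 CPM with inhibitors (4.67 ± 0.22), and Cxcl16, a membrane-bound chemokine, rose against tissue by 3.84 ± 0.25. Neither of these was called between the suspensions (0.10 ± 0.17 and 0.10 ± 0.20). 2 members had no count in any tissue library, and with those at the bound of 3 counts the list median was 4.03 in place of 4.24.

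Chaperones and housekeeping groups had few called genes. Of 12 heat shock genes 1 rose, the small chaperone Hspb1, at 15.97, 12.5, 15.1 and 14.1 CPM in tissue and 68.8, 61.2, 80.9 and 75.4 CPM with inhibitors (2.31 ± 0.18), and 2 fell, Hsph1 (-1.63 ± 0.17) and Hspa4l (-1.02 ± 0.11), which lost its call without the suspension of mouse 1362 (-0.92). The inducible Hspa1a was at 33.8, 26.1, 23.3 and 19.98 CPM in tissue, 14.8, 17.95, 9.199 and 11.4 CPM with inhibitors and 51.6, 67.7, 70.9 and 73.1 CPM without. It differed between the suspensions (-2.30 ± 0.23) and was not called against tissue (-0.95 ± 0.23), but was called without the suspension of mouse 156 (-1.01) or 157 (-1.13), without the tissue library of mouse 949 (-1.06), with DESeq2 size factors (-1.004), by DESeq2's Wald test (-1.004) and in an earlier deposited table of the same libraries (-1.01), and its reads cannot be fully told from those of the near-identical Hspa1b. Among 78 cytosolic ribosomal protein genes 1 was called higher and none lower (1.28% called, median 0.33). Below the fold limit, every suspension lay above every tissue library for 57 of the 78 and below for 5, against 36.3% and 35.2% of all genes. Of 98 nuclear genes of oxidative phosphorylation 13 fell and 5 rose (median -0.65), and every suspension lay below every tissue library for 78 and above for 3. Among the 13 were the respiratory subunits Cox5a (-1.38 ± 0.11) and Ndufv1 (-1.11 ± 0.11), and among the 5 were Cox8b (3.02 ± 0.41) and the pericyte form Ndufa4l2 (1.93 ± 0.30), picked out after their values were seen. Summed, this group was at 16062 to 17732 CPM in tissue and 8528 to 11623 CPM in the suspensions.

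Over the whole table, the 10 largest rises with at least 20 CPM in the suspensions were Alas2, P2ry12, Slc26a7, Gpr34, Tlr9, Cd180, Ptafr, Emr1, Ptprc and Hba-a2. Tlr9 and Cd180 are innate immune receptors, Ptafr is the receptor for platelet-activating factor, Emr1 encodes the macrophage antigen F4/80, and Ptprc encodes the pan-leukocyte antigen CD45. Ptprc was at 2.21, 1.08, 1.68 and 1.57 CPM in tissue and 77.1, 68.2, 72.2 and 105 CPM in the suspensions (5.59 ± 0.21), and Emr1 at 2.71, 3.37, 2.74 and 3.37 CPM and 172, 158, 146 and 267 CPM (5.93 ± 0.30). Slc26a7, an anion exchanger, went from 0.201, 0, 0.632 and 0.225 CPM to 19.5, 20.9, 21.0001 and 22.9 CPM (6.21 ± 0.47). The 10 largest falls with at least 20 CPM in tissue were Sst, Nell1, Oxt, Kcnv1, Slc1a6, Meg3, Snhg11, Abcc8, Vgf and Rtn4rl2. Meg3 (gene 17263, chr12:109540996-109571729), an imprinted noncoding RNA of neuronal nuclei, was at 2725, 3343, 2866 and 3143 CPM in tissue and 127, 74.02, 49.7 and 26.6 CPM in the suspensions (-5.45 ± 0.49). Vgf, a secreted neuropeptide precursor, was at 441, 447, 439 and 497 CPM and 10.3, 20.1, 8.08 and 5.87 CPM (-5.37 ± 0.26), and Kcnv1, a modulatory potassium channel subunit, at 37.98, 35.3, 38.1 and 46.3 CPM and 0.884, 1.37, 0.558 and 0.438 CPM (-5.58 ± 0.31). Membership was counted over all lists except the ribosomal, oxidative phosphorylation and long noncoding RNA ones. Of the 4012 genes called higher 771 were on such a list, and of the 3175 called lower 179, against 1151 of all 15753 tested genes. These counts depend on what the lists hold. The study's lists have 282 microglial, 235 endothelial, 194 oligodendrocytic and 138 astrocytic genes but 97 neuronal ones, so the counts do not compare rises with falls.

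The suspensions with and without inhibitors, from the same 4 mice, were last compared for the cell type lists. None of the microglial, endothelial, astrocyte, mature oligodendrocyte, neuronal, ventricular or blood markers was called between them. The mean log2(CPM + 1) of the list differed within a mouse (inhibitors minus none) by 0.13 ± 0.32 (SD, n = 4 mice) for the 20 microglial markers, by -0.19 ± 0.22 for the study's microglial list, where all 4 mice were below 0, by 0.07 ± 0.41 for endothelium and by 0.11 ± 0.14 for mature oligodendrocytes. For pan-neuronal markers it was -0.03 ± 0.73, from -0.98 in mouse 1362 to 0.80 in mouse 157. The choroid plexus list ran from -1.36 in mouse 1362 to 0.94 in mouse 156. The immediate-early list differed by -1.75 ± 0.17 and the cytokine list by -1.76 ± 0.18, lower in 4 of 4 mice. Of the 282 genes of the study's microglial list 21 were called lower with inhibitors (7.45%), and 1 of the 235 of its endothelial list (0.426%). The share over all genes was 0.311%, which the endothelial share was near. Between the suspensions the median log2 fold change of the study's microglial list was 0.06, and its lowest value was -5.06, that of Ccl4. The part of the 21 genes in the mean of that list was not tested. Against tissue, the suspensions without inhibitors gave 7043 called genes (44.7%), 4033 higher and 3010 lower, a comparison that uses the same tissue libraries.

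**Figure D5:**
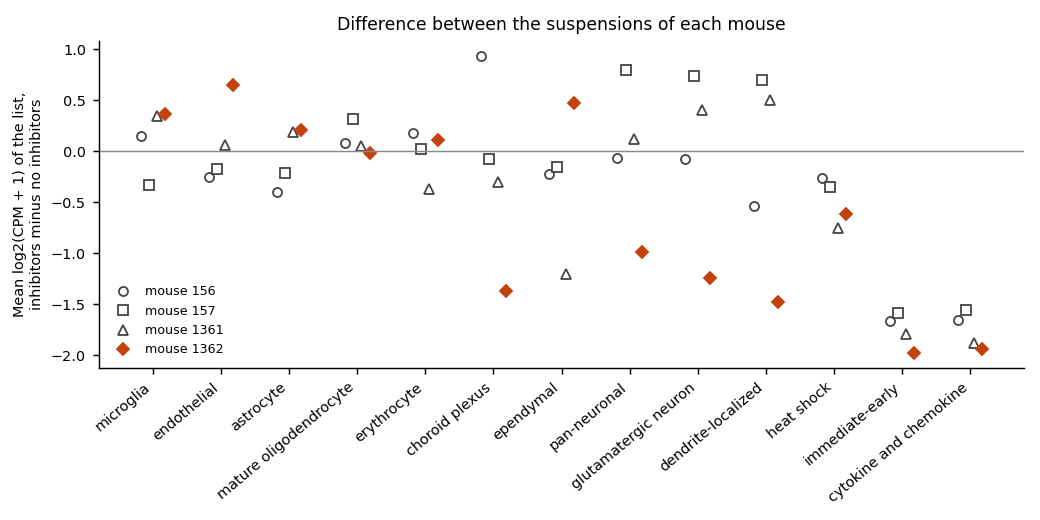
Difference in the mean log2(CPM + 1) of each list between the suspensions of 1 mouse (inhibitors minus no inhibitors), 1 symbol per mouse. Immediate-early and cytokine lists lay between -1.97 and -1.56 in all 4 mice, heat shock genes below 0, and the cell type lists scattered on both sides of 0, from -1.47 to 0.94.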

How the data were processed

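Input RNA of 16 libraries (4 tissue, 4 suspension with inhibitors, 4 without, 4 Dounce) was used. Per the study's methods, the authors made stranded poly(A) libraries, aligned trimmed reads to mm10 in Strand NGS and quantified genes after dropping duplicates. The authors deposited expected counts (not whole numbers), rounded here to whole counts, and log2 values normalized with DESeq2 size factors, used only in an alternative. Dropping duplicates lowers the counts of abundant genes most. Of 16000 listed genes, the 15753 whose counts exceeded 5 throughout any 1 group were tested in edgeR 4.0.16 (R 4.3.3; TMM, quasi-likelihood, two-sided, group as the only term, all 16 libraries, Benjamini-Hochberg FDR under 0.1 and fold change above 2), and the script was tested on simulated data. Depth per library is in the report, and 3 counts per library set the bound for genes at 0. Alternatives used DESeq2 1.42.0, limma 3.58.1, other scalings, filters, library sets, an earlier table and each library left out. SE is the log2 fold change divided by the root of the F statistic.

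Members and lists were chosen with earlier results of these data known. Named genes were the first 3 tested members and the 2 with the largest change of each list, the 10 largest rises and falls with at least 20 CPM in the higher group, and called immediate-early, cytokine and heat shock genes. Other named genes were chosen after their values were seen, and some genes that the rule takes are not reported here. The study's marker lists came from its supplement. Listed symbols not tested were Myrf, Map2, Nrep, Agrp, Acta2, Cnn1, Dnah6, Hbb-bs, Hbb-bt, Il10 and Cxcl1, and of the long noncoding RNAs Snhg14 and Gm26917. The suspensions with and without inhibitors carry the same mouse numbers, that is, come from the same animals. Deviations of same-mouse libraries from their group means correlated at -0.043 to 0.098, and those of different mice at -0.087 to 0.079. The 23 symbols that had turned into dates were restored from gene identifiers.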

Additional observations from a re-analysis of the deposited data

Results flagged for a closer look

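In groups of 4 libraries, a library was singled out where its gap to the nearest other library exceeded Dixon's 95% critical value, taken over the whole range. Chance does this in about 1 in 20 groups, and here it happened in 28 of 396 groups over the genes named and the list sums. Among the inhibitor suspensions, that of mouse 1362 was far above the rest for Btg2 (104 CPM, the other 3 at 71.9 to 75.6), Cd83 (68.4 CPM, the other 3 at 38.4 to 42.9), Cx3cr1 (959 CPM, the other 3 at 579 to 613), Dcx (40.8 CPM, the other 3 at 18.7 to 22.3), Hcrt (0.175 CPM, the other 3 at 0), Tgfb1 (212 CPM, the other 3 at 133 to 146), Tlr9 (51.1 CPM, the other 3 at 32.2 to 34.3), the sum of the microglia list (19889.5 CPM, the other 3 at 14142 to 15006), the sum of the cytokine and chemokine list (416 CPM, the other 3 at 271 to 282) and the sum of the study microglial list (63667 CPM, the other 3 at 46625 to 49017). It was far below the rest for Dusp5 (0.701 CPM, the other 3 at 2.75 to 3.09), Hspa4l (44.6 CPM, the other 3 at 59.8 to 60.96) and the sum of the oxidative phosphorylation list (8528 CPM, the other 3 at 11264 to 11623). Suspensions of the other mice stood out for Foxj1 (95.9 CPM, the other 3 at 122 to 127), Gja1 (1121 CPM, the other 3 at 949 to 967), Nell1 (2.39 CPM, the other 3 at 0.789 to 1.01), Rorb (588 CPM, the other 3 at 86.96 to 168) and Slc6a3 (2.56 CPM, the other 3 at 0.353 to 0.613). Of these, the suspension of mouse 157 was the high one for Gja1, Rorb and Slc6a3, that of mouse 156 for Nell1, and that of mouse 1361 was the low one for Foxj1. The tissue library of mouse 946 was far above the others for Arc (181 CPM, the other 3 at 117 to 124), P2ry12 (9.75 CPM, the other 3 at 7.52 to 7.71) and Ptafr (0.904 CPM, the other 3 at 0.112 to 0.241). That of mouse 947 was far above them for Ccl4 (0.241 CPM, the other 3 at 0), Il1b (0.723 CPM, the other 3 at 0) and Nfkbia (57.7 CPM, the other 3 at 39.99 to 41.7). That of mouse 949 was far above them for Alas2 (7.63 CPM, the other 3 at 5.79 to 6.03), Cspg4 (24.5 CPM, the other 3 at 16.3 to 16.5), Sall1 (32.1 CPM, the other 3 at 23.5 to 24.5) and Vgf (497 CPM, the other 3 at 439 to 447). The values of Ccl4, Hcrt, Il1b and Ptafr so singled out rest on few counts. Of the genes listed here that were called against tissue, Hspa4l lost its call without the library that stood apart.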

How the results depend on the processing

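No result named here reversed direction among the calls. Requiring at least 10 counts in every sample, which removes genes that are absent from 1 preparation, left 12062 genes and 4617 calls against tissue (2546 higher, 2071 lower), 32 calls against suspensions without inhibitors (1 higher, 31 lower) and, for suspensions without inhibitors against tissue, 4565 calls (2534 higher). It also turned the median of the monoaminergic, cholinergic and hypothalamic list to 0.62, since Ddc was its only member still tested. Between the suspensions, DESeq2's Wald test and limma each gave 1 gene higher in place of 0. Leaving out 1 library at a time gave 7012 to 7249 calls against tissue (3921 to 4031 higher, 3091 to 3220 lower), 46 to 55 between the suspensions (0 to 1 higher, 45 to 54 lower), and 6950 to 7145 without inhibitors against tissue (3996 to 4055 higher, 2954 to 3117 lower). The median of all genes was 0.03 with TMM, -0.02 with DESeq2 size factors and 0.12 unscaled, and the calls were higher in 55.8%, 53.7% and 59.4%. Against tissue, calls changed for Mbp, Hspa1a, Glul, Ppp1r15a and Cited2 (gained in some alternatives; Glul 1.00 and Ppp1r15a 1.03 unscaled, Cited2 -1.12 in the earlier table) and for Fos, Gadd45b, Hspa4l, Ndnf and Rorb (lost in some). Without scaling, Gadd45b was at -0.92 and Hspa4l at -0.93, and with limma at -0.97 and -0.97. Between the suspensions, Il1a lost its call with limma (-1.87), Klf6 without the inhibitor suspension of mouse 1361 (-0.99), Dusp6 and Cyr61 without the other suspension of mouse 157 (-0.94) and 1361 (-0.97). The cause was not tested.

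No paired analysis was possible for the suspensions against tissue because the groups share no mouse. With the mouse number as a replicate block, 50 genes were called lower with inhibitors than without and 0 higher, and 47 of them were among the 49 called without the block; Egr3 was not (-1.95). At these depths, genes with a few counts per library carry the largest errors.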

Other observations

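Long noncoding RNAs were looked at after their values were seen. Of 8 tested, 6 were called lower in the inhibitor suspensions than in tissue and 1 higher, that is 87.5% called against 45.6% of all genes. Because the list was made with the values known, this share says nothing about long noncoding RNAs as a class. The transcripts Meg3 and Rian come from the same imprinted domain, and Rian was at 447, 467, 469 and 505 CPM in tissue and 49.8, 53.4, 59.6 and 33.6 CPM in the suspensions (-3.27 ± 0.19). Miat, known from neurons and retina, was at 266, 283, 297 and 321 CPM in tissue and 21.1, 8.61, 8.73 and 12.5 CPM in the suspensions (-4.51 ± 0.39). The gene called higher was Neat1, the scaffold of nuclear paraspeckles, at 77.8, 68.5, 67.3 and 58.8 CPM in tissue and 319, 244, 287 and 308 CPM in the suspensions (2.09 ± 0.21). Malat1, an abundant nuclear RNA of nearly all cell types, was at 439, 553, 471 and 501 CPM in tissue and 377, 457, 321 and 245 CPM in the suspensions, and was not called (-0.49 ± 0.29).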
